A study of Mus musculus with 3 samples.

Results

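The 10 cell-surface heparan sulfate proteoglycan genes of the mouse, the syndecans Sdc1 to Sdc4 and the glypicans Gpc1 to Gpc6, were examined by RNA sequencing of proximal incisor mesenchyme. The genes were taken by symbol from the deposited table, which listed 19381 genes, and all 10 of 10 were found. The table covered 3 libraries, called DKO in the labels and numbered 1 to 3. Every library came from mice that carried Gli1-CreER, a tamoxifen-inducible Cre recombinase under control of Gli1, together with floxed alleles of Arid1a (Arid1afl/fl) and Arid1b (Arid1bfl/fl), whose products are alternative subunits of the BAF chromatin remodeler. At an age of 1 month the mice received tamoxifen (1.5 mg for every 10 g of weight), and incisors were collected after 4 days. Such a Cre acts in Gli1-expressing cells and their progeny, and the other cells of the tissue keep the floxed genes. Control mice were not analysed here, so the data describe levels and the spread between DKO libraries and give no effect of the deletion. Separate animals are not stated for the libraries, so every SD and p covers library spread alone, part or all of it possibly technical.

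Heparan sulfate proteoglycans are core proteins that carry long sulfated sugar chains, and the chains bind growth factors such as FGFs, BMPs, Wnts and hedgehog proteins at the cell surface. Syndecans are transmembrane proteins with short cytoplasmic tails that bind PDZ-domain proteins. Glypicans are held to the outer membrane by a lipid anchor and can be released from it. In mouse tooth development, syndecan-1 is known from the condensing dental mesenchyme beneath the dental epithelium.

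Values are normalized counts as deposited, scaled by the authors to a common upper quartile of 44.7. Library totals lay between 958773 and 986401. Transcripts of Arid1a were at 136, 129.8 and 133 and those of Arid1b at 50.5, 50.7 and 50.8 in replicates 1, 2 and 3. Reads from exons outside the floxed parts and from cells without Cre enter both values, so they do not check the deletion. Dental mesenchyme markers (8 of 8 at a mean of at least 10) summed to 2857, 3002 and 3174, and dental epithelium markers (also 8 of 8) to 704, 1090.4 and 759, so the tissue labelled mesenchyme also held epithelial transcripts. In bulk tissue, fewer cells of a type and less RNA per cell cannot be told apart.

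Of the 10 genes, 9 had a mean of at least 10, a level reached by 53.6% of all listed genes. Gpc5 was the gene below it. All 10 are protein coding, and their exon counts separated the families. In the GENCODE M21 annotation of mm10, the transcript with the longest coding sequence had 5 exons for each of the 4 syndecans and 8 to 10 exons for the glypicans. Coding sequences ran to 594 to 1326 bases in the syndecans and to 1671 to 1935 bases in the glypicans. Gene spans were 19.6 to 114 kb in the syndecans, and in the glypicans they reached from 6.35 kb for Gpc2 to 1433 kb for Gpc5.

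The sequences just upstream of the start are shown for 4 members on which the results below turn. Gpc3 and Sdc1 had the highest levels per kilobase of exon, Sdc3 had the widest spread between libraries, and Gpc5 had the lowest level. RefSeq windows (GRCm38.p6, the assembly of mm10) were given for 7 of the 10 genes, and Sdc2, Gpc1 and Gpc6 were not among them. Each sequence reads 5′ to 3′ on the strand of its gene and stops just before the RefSeq or the GENCODE start, whichever lies farther upstream (GENCODE for Sdc1, RefSeq for Gpc3, the same base for Sdc3 and Gpc5). Capitals mark each CG dinucleotide. The Sdc1 window is chr12:8771146-8771322 on the plus strand, and the Sdc3 window is chr4:130792287-130792536 on the plus strand. The Gpc3 window is chrX:52613975-52614224 on the minus strand, and the Gpc5 window is chr14:115091965-115092214 on the plus strand.
Sdc1: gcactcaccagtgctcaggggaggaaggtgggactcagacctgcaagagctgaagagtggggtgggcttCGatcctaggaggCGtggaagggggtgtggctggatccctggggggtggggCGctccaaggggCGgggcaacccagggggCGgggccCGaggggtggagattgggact
Sdc3: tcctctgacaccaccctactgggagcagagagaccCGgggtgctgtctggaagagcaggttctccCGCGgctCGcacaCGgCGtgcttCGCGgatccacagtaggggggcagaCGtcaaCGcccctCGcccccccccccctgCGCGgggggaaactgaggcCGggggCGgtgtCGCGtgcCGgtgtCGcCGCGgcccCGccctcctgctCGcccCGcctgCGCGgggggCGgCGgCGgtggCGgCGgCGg
Gpc3: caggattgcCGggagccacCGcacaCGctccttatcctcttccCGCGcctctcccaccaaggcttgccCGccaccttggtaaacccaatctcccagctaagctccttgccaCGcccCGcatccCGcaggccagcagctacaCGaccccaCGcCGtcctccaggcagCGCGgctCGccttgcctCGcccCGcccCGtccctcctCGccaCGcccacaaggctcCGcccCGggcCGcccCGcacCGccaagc
Gpc5: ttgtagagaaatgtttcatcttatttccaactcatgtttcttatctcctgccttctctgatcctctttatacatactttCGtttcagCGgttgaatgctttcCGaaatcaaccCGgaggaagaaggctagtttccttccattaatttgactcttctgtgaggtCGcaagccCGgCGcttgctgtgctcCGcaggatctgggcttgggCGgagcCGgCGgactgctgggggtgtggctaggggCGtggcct
Over whole windows of 300 bases, which run to 50 bases past the RefSeq start, the 7 members held 14 (Sdc1) to 44 (Sdc3) CG dinucleotides, against a median of 7 over 32851 windows of all genes. Gpc3 held 30, Gpc2 26, Gpc4 and Sdc4 22 each and Gpc5 17. Of all windows, 43.5% held at least 10. By this count Sdc1 lay at percentile 65.4 of all windows, Gpc5 at 70.3 and Sdc3 at 98.1. The GC box letters GGGCGG or their complement CCGCCC, which overlap CG, occurred in 7 of 7 member windows and in 35.7% of all windows. The letters TATAAA or their complement TTTATA occurred in the Gpc5 window alone among the 7, and in 13.6% of all windows. These are counts of letters and not of bound sites.

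The 4 syndecans were all well expressed. Sdc1 (chromosome 12, 8771323 to 8793715) stood at 343, 415 and 482 in replicates 1, 2 and 3 (413 ± 69.6, SD, n = 3), the highest mean of the 10 genes as deposited. It was lowest in replicate 1 and highest in replicate 3. Sdc3 (chromosome 4, 130792537 to 130826319), known best from neurons and muscle progenitors, stood at 383, 222 and 345 (316 ± 84.1, SD, n = 3). Replicate 2 was the low library for Sdc3, and the others were close together.

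Sdc4 and Sdc2 barely differed between libraries. Sdc4 (chromosome 2, 164424247 to 164443887), the syndecan of focal adhesions, stood at 188, 191 and 180.2 (186 ± 5.58, SD, n = 3). Sdc2 (chromosome 15, 32920723 to 33034935), which takes part in filopodium formation and in vessel sprouting in zebrafish, stood at 137, 139 and 134 (136 ± 2.18, SD, n = 3). If the smallest value of a library is 1 read, Sdc2 rests on 4687, 5043 and 5760 reads with counting errors of 1.46%, 1.41% and 1.32%, and its coefficient of variation of 1.60% was of about that size. Sdc3 rests on 13148, 8078 and 14793 reads, and its coefficient of variation of 26.6% was 23.9 times its largest counting error. The corresponding ratio was 18.3 for Sdc1 and 2.41 for Sdc4.

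**Figure D1:**
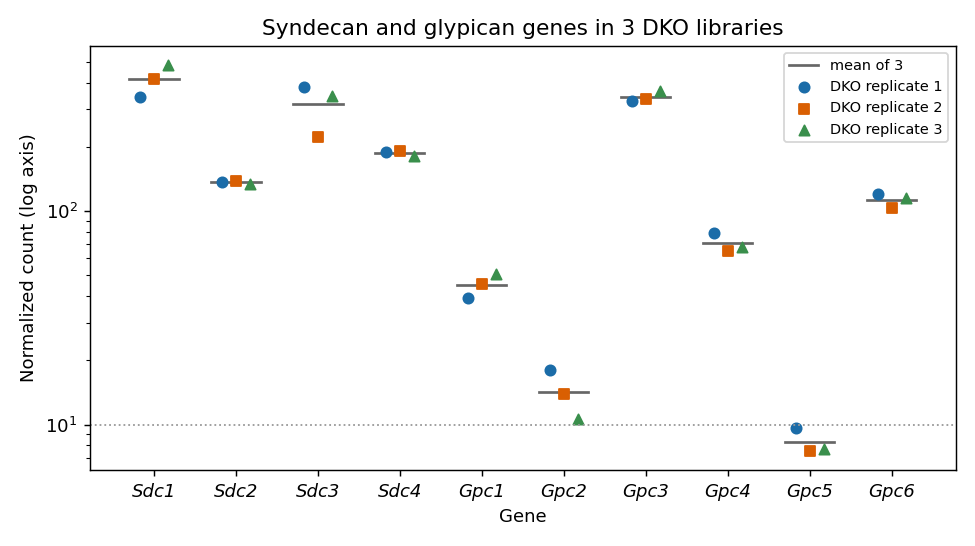
Normalized count (log axis) of each syndecan and glypican gene in DKO replicates 1 to 3, with a line at the mean and a dotted line at 10. Gpc5 alone has a mean under 10, and the points of Sdc3 and Gpc2 lie farthest apart for their level.

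The glypicans spread over a wider range of levels. Gpc3 (chromosome X, 52272426 to 52613950), a negative regulator of hedgehog signalling and of body growth in mice, stood at 328, 335 and 365 (343 ± 20.0, SD, n = 3). Its 3 libraries lay within 1.11-fold of each other, with replicate 3 highest. Gpc6 (chromosome 14, 116925315 to 117976544), mutated in a recessive human short-limb dysplasia, stood at 120.0, 104 and 115 (113 ± 8.35, SD, n = 3).

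Gpc4 (chromosome X, 52053021 to 52165252), a regulator of Wnt and FGF signalling in vertebrate embryos, stood at 79.3, 64.8 and 67.6 (70.6 ± 7.69, SD, n = 3). Gpc1 (chromosome 1, 92831645 to 92860779), whose loss reduces brain size in mice, stood at 39.2, 45.8 and 50.7 (45.2 ± 5.77, SD, n = 3). Gpc4 was highest and Gpc1 lowest in replicate 1.

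Gpc2 and Gpc5 were the least abundant. Gpc2 (chromosome 5, 138273655 to 138280005), described first in developing neurons, stood at 18.1, 13.9 and 10.6 (14.2 ± 3.73, SD, n = 3), with replicate 1 highest and replicate 3 lowest. Its coefficient of variation of 26.3% was 5.61 times its largest counting error, which was 4.68%. The annotated gene Gm43720 overlaps Gpc2 on the same strand and was not analysed here, so Gpc2 may hold reads of it. Gpc5 (chromosome 14, 115092215 to 116525179), a hedgehog co-receptor in human rhabdomyosarcoma cells, stood at 9.67, 7.53 and 7.69 (8.29 ± 1.19, SD, n = 3). Gpc5 was measurable in every library, on 332, 274 and 330.0 reads by the same reckoning.

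Levels of different genes were compared after division by the total length of annotated exons. On this scale, normalized counts per kilobase of exon, Gpc3 was at 122, 124 and 136 (127 ± 7.45, SD, n = 3) and Sdc1 at 90.0, 109 and 127 (109 ± 18.3, SD, n = 3). Next came Sdc4 (73.2 ± 2.19), Sdc3 (52.8 ± 14.0), Sdc2 (38.7 ± 0.618), Gpc4 (26.6 ± 2.90), Gpc6 (17.6 ± 1.30), Gpc1 (8.76 ± 1.12), Gpc2 (3.32 ± 0.872) and Gpc5 (1.86 ± 0.268). Among 18985 genes with an exon length, Gpc3 lay at percentile 98.9 of the mean level per kilobase, Sdc1 at 98.6, Sdc2 at 95.2, Gpc2 at 50.1 and Gpc5 at 39.9.

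Of the 9 pairs of neighbours in this order, 8 kept it in all 3 libraries and 7 had ranges that did not overlap. The exceptions were Gpc3 and Sdc1, whose ranges overlapped although Gpc3 was higher in 3 of 3 libraries, and Sdc3 and Sdc2, whose order turned in replicate 2. Exact sign-flip permutation of the log2 differences gave a two-sided p = 0.25 for the 8 pairs, the smallest that n = 3 allows, and p = 0.5 for Sdc3 and Sdc2 (Benjamini-Hochberg adjusted over 9 pairs, 0.281 and 0.5). The pairs and their direction came from these same means, and with 3 libraries this test cannot pass 0.05. The order is thus a description. Part of it depends on the length used. Gpc3 was first per kilobase of the transcript with the longest coding sequence as well (155 ± 9.04), but ranked 5 of 10 per kilobase of coding sequence (197 ± 11.5), behind Sdc1 (443 ± 74.6), Sdc4 (314 ± 9.40), Sdc3 (239 ± 63.4) and Sdc2 (225 ± 3.60). Gpc1, Gpc2 and Gpc5 took the last 3 places in each case.

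**Figure D2:**
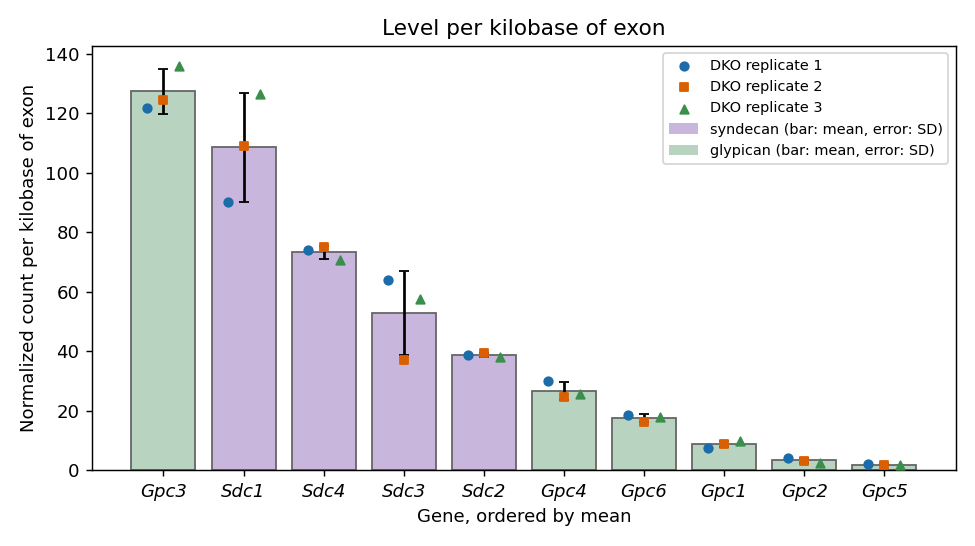
Normalized count per kilobase of annotated exon for each gene, as bars at the mean with SD over 3 DKO libraries and a point per library. Gpc3 and Sdc1 lead with overlapping points, and Gpc1, Gpc2 and Gpc5 all lie under 10.

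Summed over each family, syndecans were at 267, 260.3 and 293 and glypicans at 184, 179 and 193 normalized counts per kilobase of exon in replicates 1, 2 and 3. Syndecans made up 59.1%, 59.3% and 60.3% of the joint sum. The log2 ratio of syndecans over glypicans was 0.56 ± 0.04 (SD, n = 3), a 1.47-fold difference with syndecans higher in 3 of 3 libraries (exact sign-flip permutation test, two-sided p = 0.25). This ratio was 0.32 per kilobase of the longest coding transcript and 1.82 per kilobase of coding sequence, so its size depends on the length used. Gpc3 alone made up 27.8 ± 0.673% of the joint sum and Sdc1 23.6 ± 3.22%. The share of Sdc3 was 14.2%, 8.44% and 11.8%, and that of Gpc5 was 0.407 ± 0.0661%. All these shares are of levels per kilobase of exon, and they too depend on the length used. Per kilobase of coding sequence, Gpc3 (197 ± 11.5, SD, n = 3) lay below Sdc1 (443 ± 74.6).

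Within the syndecans, Sdc1 and Sdc3 form one known subfamily and Sdc2 and Sdc4 the other. Sdc1 exceeded Sdc3 per kilobase of exon by log2 differences of 0.49, 1.56 and 1.14 in replicates 1, 2 and 3 (1.06 ± 0.54, SD). Sdc2 lay below Sdc4 by differences of -0.93, -0.93 and -0.90 (-0.92 ± 0.02, SD). The Sdc2 to Sdc4 ratio was thus nearly the same in every library. That of Sdc1 to Sdc3 was largest in replicate 2, where Sdc3 was low. It also differed between replicates 1 and 3, where deposited values were 343 and 482 for Sdc1 and 383 and 345 for Sdc3. For each of the 7 pairs compared within the families, exact sign-flip permutation gave a two-sided p = 0.25, also after adjustment (n = 3).

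Among the glypicans, Gpc3 and Gpc5 form a subfamily of their own, and Gpc1, Gpc2, Gpc4 and Gpc6 form the other. Gpc3 exceeded Gpc5 per kilobase of exon by a log2 difference of 6.10 ± 0.26 (SD, n = 3), a 68.7-fold difference and the widest of the 7 pairs. Gpc1 exceeded Gpc2 by 0.85, 1.45 and 1.98 (1.43 ± 0.57, SD). Gpc4 exceeded Gpc6 by 0.60 ± 0.08 after division by exon length, and this direction is not secure. The annotated exons of Gpc6 add up to 6425 bases and those of its longest coding transcript to 2423, and by that transcript Gpc4 lay below Gpc6 by a log2 difference of -0.81.

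The glypicans include 2 gene pairs that neighbour each other. Gpc4 and Gpc3 lie on the minus strand of chromosome X with 107 kb and 0 annotated genes between them. Gpc3 exceeded Gpc4 by log2 differences of 2.03, 2.35 and 2.41 per kilobase of exon (2.26 ± 0.21, SD, n = 3), a 4.80-fold difference. Gpc5 and Gpc6 lie on the plus strand of chromosome 14 with 400.1 kb and 0 protein-coding genes between them. Gpc6 exceeded Gpc5 by 3.10, 3.25 and 3.37 (3.24 ± 0.14, SD, n = 3), a 9.47-fold difference. In each pair the neighbours stood at clearly different levels in every library, and these directions held with every length used.

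Members differed in how far they varied between libraries. The log2(value + 1) range over the 3 libraries had a median of 0.29 over the 9 members at a mean of at least 10 and of 0.19 over all 10388 genes at that level. A range of at least 0.5 was found for 2 of the 9, Sdc3 (0.78) and Gpc2 (0.71), and for 8.12% of all genes at that level. Just under the threshold lay Sdc1 at 0.49, which passed it (0.52) after libraries were rescaled to equal totals. The next were Gpc1 at 0.36 and Gpc4 at 0.29, and the narrowest were Sdc4 at 0.08 and Sdc2 at 0.05. The wide range of Sdc3 rests on replicate 2, without which it was 0.15. That of Gpc2 rests on replicates 1 and 3 together, and was 0.36 without either of them.

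The members did not share a common order of libraries. Of the 9, 4 were highest in replicate 1 (Sdc3, Gpc2, Gpc4 and Gpc6), 2 in replicate 2 (Sdc2 and Sdc4) and 3 in replicate 3 (Sdc1, Gpc1 and Gpc3). The corresponding shares of all genes at that level were 31.2%, 34.2% and 34.6%. Lowest values fell in replicates 1, 2 and 3 for 3 members each, against 38.1%, 27.8% and 34.2% of all genes.

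Markers of several cell types differed between the same libraries. The odontoblast list (5 of 6 genes at a mean of at least 10) summed to 18467, 9871 and 23323 in replicates 1, 2 and 3. It was lowest in replicate 2, as Sdc3, Gpc4, Gpc5 and Gpc6 were, but highest in replicate 3, where none of those members was. Of the 5 genes, 4 were lowest in replicate 2, and Col1a2 (2809, 3889.7 and 5371) was lowest in replicate 1. Dspp (4959, 1072 and 3489) and Phex (377, 79.7 and 339) had the order of libraries that Sdc3, Gpc4, Gpc5 and Gpc6 showed. The other 3 were highest in replicate 3. The dental epithelium list was highest in replicate 2, with Krt5 at 180.0, 253 and 162. Endothelial markers (6 of 6) summed to 323, 339 and 450.0 and macrophage markers (6 of 6) to 694, 953 and 983, in the order of libraries that Sdc1, Gpc1 and Gpc3 showed. The sums of the dental mesenchyme, glia (28.6, 39.2 and 45.7) and neuron lists (27.3, 39.0 and 43.4) had that order too, so it did not single out a cell type. Within the macrophage list, 3 of 6 genes were highest in replicate 3. Plasma and B cell markers, relevant because plasma cells carry syndecan-1, were near 0, with Jchain at 3.67, 2.64 and 1.89 and Cd79a, of which the highest library had 0.385. Neuronal Tubb3 was at 17.2, 17.8 and 17.7 and the glial factor Sox10 at 0.728, 1.02 and 1.28, neither with the order of Gpc2. The part of these cell types in the member values was not tested.

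**Figure D3:**
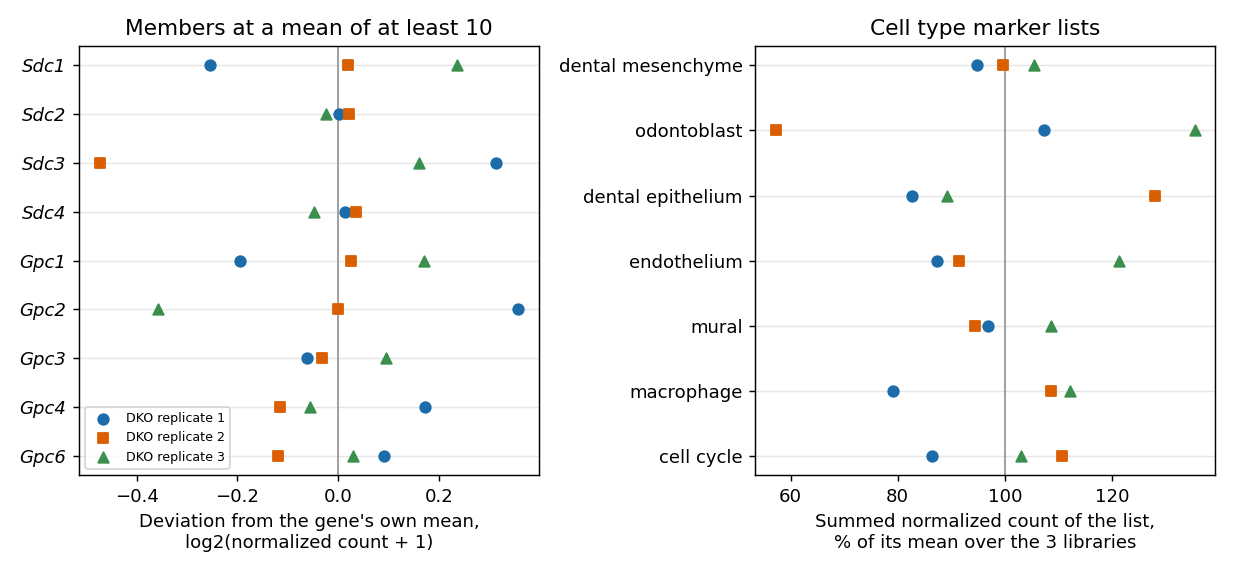
Left, deviation of each member at a mean of at least 10 from its own mean on the log2(normalized count + 1) scale, with a point per DKO library. Right, summed normalized count of marker lists as a percentage of the list's mean over the libraries. Replicate 2 lies far to the left for Sdc3 and for odontoblast markers, and far to the right for dental epithelium markers.

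Genes with the most similar pattern over the 3 libraries were found by the Euclidean distance of their log2 deviations, among genes at a mean of at least 10. Nearest to Sdc3 were Nell1, an osteogenic secreted protein (61.5, 35.7 and 57.8, distance 0.0474), Cd74 (131, 78.4 and 124) and St6galnac2 (27.7, 15.1 and 23.6). Nearest to Gpc2 were Ndrg2 (99.8, 75.2 and 59.7, distance 0.0323), Nt5c3 (43.9, 35.3 and 26.6) and Chpt1 (205, 164 and 130.3). Nearest to Sdc1 were Lcp1, an actin-bundling protein of leukocytes (89.4, 109 and 126, distance 0.00255), Atp5g1 (30.7, 37.0 and 43.2) and Trpc4 (13.1, 16.0 and 18.96). Within a distance of 0.1 lay 192 of 10387 genes for Sdc1, 21 for Gpc2 and 9 for Sdc3, and the likeness rests on 3 libraries.

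Transcripts for the enzymes that build the chains were found at every step. In 9 lists of heparan sulfate genes, 72 genes were found and 58 had a mean of at least 10. Bpnt2 and Impad1 are symbols of the same gene and were counted once, and Ndst4, Hs3st2 and Mmp7 were not analysed here. All 7 enzymes that attach and extend the linker were at a mean of at least 10, led by the xylose kinase Fam20b (118 ± 4.76, SD, n = 3) and the xylose phosphatase Pxylp1 (67.0 ± 5.03). Xylt2 and Xylt1, which begin the chain, stood at 25.8 ± 3.88 and 25.4 ± 4.47. The polymerases Ext2 and Ext1, which work as a complex, were at 127 ± 15.0 and 118 ± 7.72, with Extl3 at 114 ± 8.28 and Extl2 at 49.9 ± 1.13. These pathway values are normalized counts as deposited, given as mean ± SD over n = 3.

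Sulfation enzymes of the same class stood at uneven levels. Ndst1, which removes acetyl groups and adds N-sulfate, stood at 28.7 ± 1.40 per kilobase of exon, against 8.30 ± 0.0907 for Ndst2 and 0.377 ± 0.0959 for Ndst3. The epimerase Glce was at 75.2 ± 2.39 as deposited. Of 10 O-sulfotransferases 3 had a mean of at least 10, namely Hs2st1 (206 ± 11.6), Hs3st3b1 (43.9 ± 2.23) and Hs6st1 (38.5 ± 6.12), and Hs6st2 followed at 9.22 ± 1.42. The extracellular 6-O-endosulfatases Sulf1 and Sulf2, which trim chains at the surface, were at 19.6 ± 1.97 and 27.6 ± 5.69 per kilobase of exon, against 6.94 ± 1.10 for Hs6st1. As deposited, Sulf1 (221 ± 22.3) and Sulf2 (162 ± 33.4) lay above Hs6st1 too. No other length was tried for the pathway genes. Sulf2 stood at 135, 152 and 199 as deposited. It was highest in replicate 3, as were Sdc1, Gpc1 and Gpc3, and 34.6% of all genes at a mean of at least 10.

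Among genes for chain turnover, the lysosomal enzyme Ids was at 142 ± 9.23, while heparanase, Hpse, was at 8.84 ± 1.23. Genes for sugar and sulfate donors were led by Impad1 (319 ± 19.6), the phosphatase that clears the product of sulfation in the Golgi, followed by Ugdh (176 ± 8.33), Papss1 (130.1 ± 6.24) and Ugp2 (77.9 ± 8.76). Proteoglycans that are secreted or only partly carry heparan sulfate were abundant, with perlecan, Hspg2, at 434 ± 76.0, agrin, Agrn, at 369 ± 16.4, Cd44 at 193 ± 23.6 and Nrp1 at 83.9 ± 10.8. Per kilobase of exon, Agrn (39.7 ± 1.77) was close to Sdc2 (38.7 ± 0.618), and Hspg2 (30.3 ± 5.31) lay between Sdc2 and Gpc4 (26.6 ± 2.90). By their means both lay below Gpc3, Sdc1, Sdc4 and Sdc3, and above Gpc4, Gpc6, Gpc1, Gpc2 and Gpc5.

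Genes that cleave or release the core proteins were led by the sheddase Adam10 (395 ± 20.5), the membrane protease Mmp14 (314 ± 28.8), Furin (245 ± 17.2) and Pcsk5 (213 ± 26.8). Notum, which removes a lipid from Wnts and was first linked to glypican release in flies, stood at 14.0, 8.76 and 7.15. With a mean of 9.98, just under 10, it was highest in replicate 1. So were Sdc3, Gpc2, Gpc4, Gpc5 and Gpc6, and 31.2% of all genes at a mean of at least 10. Intracellular partners of syndecans were led by Actn1 (146 ± 29.7), the syntenin gene Sdcbp (141 ± 9.55), the syntenin-binding Pdcd6ip (140.5 ± 5.34) and the Rac activator Tiam1 (109 ± 15.5). Sdcbp2, a paralog of Sdcbp, was low at 0.950 ± 0.136.

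A log2 range of at least 0.5 was found for 6 of the 58 pathway genes at a mean of at least 10, beside the 8.12% of all genes given above. Extl1, a glycosyltransferase of the exostosin family, was at 26.1, 12.4 and 14.7, and Prkca, a kinase that binds syndecan-4, at 97.0, 67.8 and 78.6. Each was highest in replicate 1 and lowest in replicate 2, as Sdc3, Gpc4, Gpc5 and Gpc6 were. Mmp9, a protease that can shed syndecans, was at 8.16, 20.5 and 22.5, Adam9 at 58.1, 81.3 and 84.4 and Actn1 at 118, 144 and 177. Those 3 and Sulf2 were lowest in replicate 1. Without replicate 1, 0 of the genes reached a range of 0.5, and the share over all genes was then 2.45%. Across the 58 genes, 31 were highest in replicate 3 and 35 lowest in replicate 1, against the 34.6% and 38.1% of all genes given above.

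**Figure D4:**
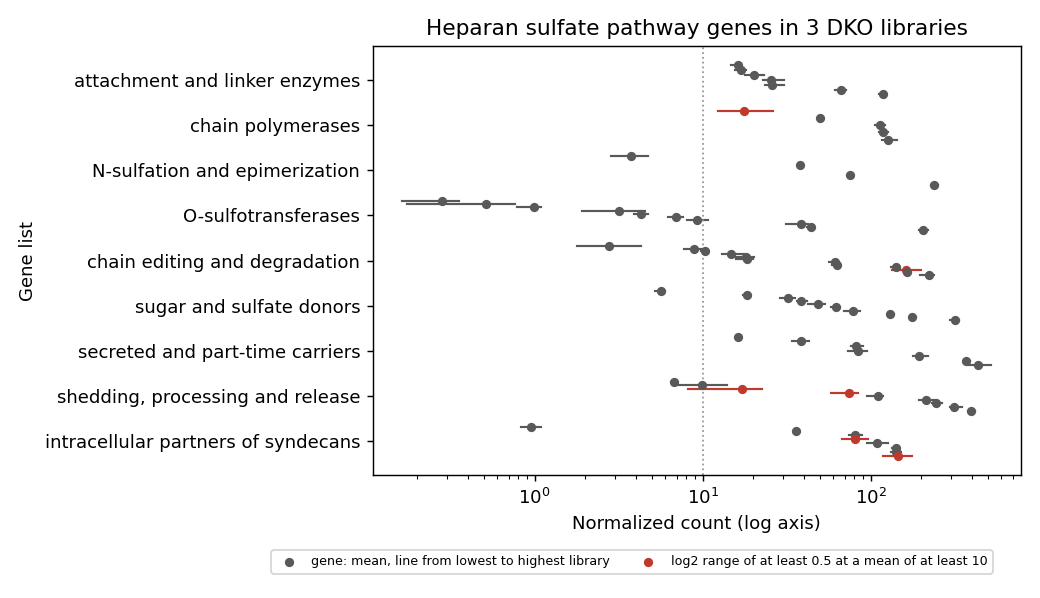
Normalized count (log axis) of 72 heparan sulfate pathway genes in 9 lists, with a point at the mean and a line from the lowest to the highest of 3 DKO libraries. Red marks the 6 genes with a log2 range of at least 0.5 at a mean of at least 10, and the dotted line stands at 10.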

How the data were processed

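RNA of 3 DKO libraries was sequenced. Reads were aligned with TopHat2 2.0.8 to mm10, per the submitters' processing notes. The counter, annotation, strand setting and treatment of shared reads are, in the sources used here, not given. The values deposited by the authors are gene-level signal, called normalized counts in the deposited table, with an equal upper quartile in each column. The number in each column name gave its library.

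In replicates 1, 2 and 3, 81.7%, 81.7% and 80.4% of values between 20 and 2000 times the smallest value of the library were whole multiples of it to within 0.02, where evenly spread values would give 4%. The smallest value was therefore taken as 1 read to state counting errors, which cover counting only, and totals then correspond to 33863066, 34900647 and 41477624 reads. Since not all values were whole, no count model was used. Exon lengths, starts and ends are those of GENCODE M21 (GRCm38), whose starts matched the deposited ones for the 10 genes while deposited stops were 1 base larger. Logarithms used a pseudocount of 1, except ratios between genes. Tests were exact sign-flip permutation tests within libraries. Analyses ran in Python 3.11.15. The range threshold was tested on simulated data and the sign-flip test on set inputs, and the other analyses were not tested in this way. Overlapping genes on the opposite strand could share reads with Sdc3, Gpc1, Gpc3, Gpc5 and Gpc6, and those listed were at 0.932 or less.

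The members and gene lists were chosen with earlier results of these data known. Named genes were all members, the 4 highest means of each pathway list, list genes with a range of at least 0.5 at a mean of at least 10, and the 3 genes nearest to Sdc1, Sdc3 and Gpc2. Others named, namely Hpse, Notum, Sdcbp2 and the markers, were chosen after their values were seen. Among the genes this rule takes, 1 enters the counts and is not reported here by name.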

Additional observations from a re-analysis of the deposited data

How the results depend on the processing

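Alternatives were other lengths, rescaling, pseudocounts, filters, a lower range threshold and leaving out each library. The Gpc4 over Gpc6 difference of 0.60 reversed to -0.68 with no division by length, to -0.81 by the longest coding transcript and to -0.66 by the longest coding sequence, and these 2 transcript-based divisions were chosen after seeing the data. The planned division by protein length was not run as written, and the coding sequence stood in for it. The other 6 pairs and the syndecan to glypican ratio kept their direction in every setting tried. Only the length settings could have reversed them. Rescaling cannot change a ratio within a library, and each ratio had the same sign in every library. The syndecan to glypican log2 ratio, 0.56, was 0.82 without length division, and leaving out a library gave 0.54 to 0.57. The count of 2 members with a wide range was 1 whichever library was left out (Sdc3 without replicate 1 or 3, Gpc2 without replicate 2), 1 with a pseudocount of 10 (Sdc3), 1 at a mean of at least 100, and 4 at a threshold of 0.3. Over all genes the share, 8.12%, was 2.45%, 5.29% and 4.84% without replicates 1, 2 and 3, 4.45% with a pseudocount of 10, 14.8% at a mean of at least 1, 6.13% at a mean of at least 100, 14.4% with no filter and 25.1% at a threshold of 0.3. The 6 pathway genes with a wide range became 0 to 6 with a library left out, 10 at a mean of at least 1, 2 at a mean of at least 100, 11 with no filter and 21 at a threshold of 0.3. The cause was not tested beyond the fewer or more genes that each filter admits. Means of the 10 members moved by less than 1 SD under rescaling. No comparison between groups was possible because the labels give a single group. Depth limits Gpc5, whose counting error was 5.49% to 6.04%.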
